A study of Homo sapiens with 6 samples.

Results

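Cells make cholesterol from acetyl-CoA, take it up from outside and store it as esters, and 28 genes of this pathway were followed here in HepG2 cells. They were chosen by name, as the genes of the deposited table whose symbol is on a list of 28, and all 28 were found among its 20026 genes. HepG2 cells are a line grown from a human liver cancer. The 3 groups were Scr, the scramble control that the labels give as wild type, miR-23a KO and miR-27a KO, with 2 RNA-seq libraries each. Both knockouts were made by CRISPR/Cas9 with paired guides, and sorted single cells were grown into clones. The labels do not say whether the 2 libraries of a group are separate clones or cultures of 1 clone, so each p-value measures only the spread between these libraries. The libraries held 14405250 to 16515261 counts. The transcripts of the edited miRNA genes themselves were not analysed here, so only the labels tell which group a library belongs to.

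Cholesterol synthesis starts with the mevalonate pathway, which joins acetyl-CoA units into squalene, and continues with the closure of squalene into lanosterol and its conversion to cholesterol. The membrane-bound transcription factor SREBP-2 switches the pathway on when sterols are low: SCAP escorts it from the endoplasmic reticulum to the Golgi, where proteases release its active part, and the INSIG proteins hold the complex back when sterols are high. Hepatocytes are a main site of this synthesis in the body, and they also export cholesterol in lipoproteins and convert it to bile acids.

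The 2 edited miRNAs come from one cluster with miR-24-2. The levels of the miRNAs of the cluster were not measured in these libraries, so a difference below belongs to a KO group and cannot be assigned to 1 miRNA. The seeds of the 2 edited ones (bases 2 to 8, in capitals) differ in base 7 alone. Both mature sequences are shown because the seed fixes which sites can be searched for in the transcripts of the 28 genes. They are from RefSeq (GRCh38.p14).
miR-23a-3p, chr19:13836595-13836615, minus strand: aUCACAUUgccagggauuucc
miR-27a-3p, chr19:13836447-13836467, minus strand: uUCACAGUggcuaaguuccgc
In the longest 3′-UTR that GENCODE release 29 (GRCh38) annotates for each gene, the 7 bases matching the miR-23a-3p seed (AATGTGA) were found in 4 of the 28 genes (14.3%), against 19.3% of the 15911 genes of the table with such a UTR. Those matching the miR-27a-3p seed (ACTGTGA) were found in 1 of the 28 (3.57%), against 16.6%. The first 5 sites below match miR-23a-3p and the last matches miR-27a-3p, with the 7 bases in capitals. A match is a description of the sequence and does not show binding.
*HMGCS1*, chr5:43290664-43290690, minus strand: tagcttggggAATGTGAcaacattccc
*HMGCS1*, chr5:43290615-43290641, minus strand: aatgtggtaaAATGTGAtacgcacaaa
*CYP51A1*, chr7:92112444-92112470, minus strand: ttctttttaaAATGTGAgatcagtgaa
*MSMO1*, chr4:165343043-165343069, plus strand: tcttgaaataAATGTGAtttttgtgtg
*NPC1*, chr18:23531901-23531927, minus strand: gatggctgtgAATGTGAtccgctcact
*STARD4*, chr5:111498195-111498221, minus strand: aaacattttcACTGTGAgaatgatgaa
*HMGCS1* held 2 of the matches. With edgeR on all 4 libraries no gene of the table passed in miR-23a KO against Scr, the 4 genes with a miR-23a-3p match included. Their log2 fold changes there were 0.32 for *HMGCS1*, 0.37 for *CYP51A1*, 0.04 for *MSMO1* and -0.55 for *NPC1*. The 1 transcript with a miR-27a-3p match, *STARD4*, had a log2 fold change of -0.55 in miR-27a KO cells and did not pass.

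The libraries of miR-23a KO lay far apart, and this bears on every value below that uses them. Levels are given in CPM, which are counts scaled to a common library size with the TMM method. Of the 27 genes with enough counts to be tested, 22 were higher in miR-23a KO replicate 1 than in replicate 2, and 20 differed more than 2-fold between them. In Scr 1 of the 27 differed more than 2-fold, and in miR-27a KO 0 of the 27 did. Over all genes with at least 40 counts in the pair, 44.9% differed more than 2-fold in miR-23a KO, 4.78% in Scr and 0.805% in miR-27a KO. Relative to the Scr mean, the median log2 level of the 27 genes was 0.59 in miR-23a KO replicate 1 and -0.88 in replicate 2. The Scr libraries were at -0.07 and 0.07, and the miR-27a KO libraries at -0.16 and -0.09. Thus both Scr libraries and both miR-27a KO libraries fell between the 2 libraries of miR-23a KO.

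**Figure D1:**
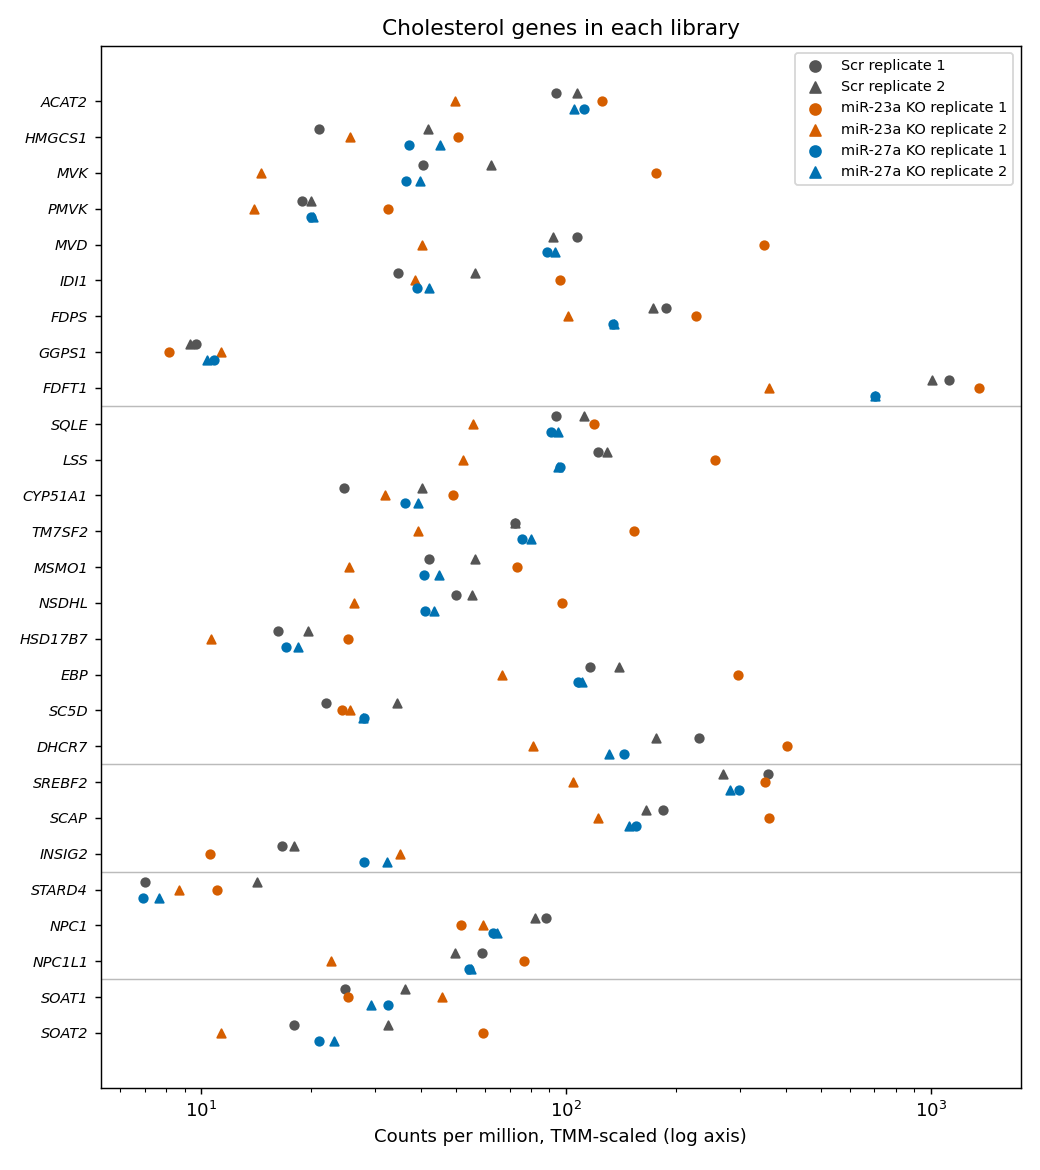
Levels of 27 cholesterol genes in each of the 6 libraries, in TMM-scaled CPM on a log axis, ordered by role (lines part mevalonate to squalene, squalene to cholesterol, SREBP control, uptake and transport, esterification). Each point is 1 library; for 22 genes the miR-23a KO replicate 1 point lies to the right of replicate 2, while the miR-27a KO points lie close together.

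The gap within miR-23a KO ran along the GC content of the transcripts. Over all genes the log2 ratio of replicate 1 to replicate 2 correlated with GC content at r = 0.69 in miR-23a KO, 0.43 in Scr and 0.06 in miR-27a KO. Over the 27 cholesterol genes r was 0.74, 0.55 and 0.27. These are correlations across genes, which share their libraries and are no independent replicates. The cholesterol genes also stood off this trend in miR-23a KO. When all genes were split into 10 bins by GC content, 25 of the 27 had a higher ratio than the median of their bin, and 23 lay above its upper quartile. The 2 exceptions were *NPC1* and *INSIG2*. In Scr 10 of the 27 lay above the median of their bin, and in miR-27a KO 9 did. What part GC content, RNA quality or the cells themselves had in this gap was not tested.

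**Figure D2:**
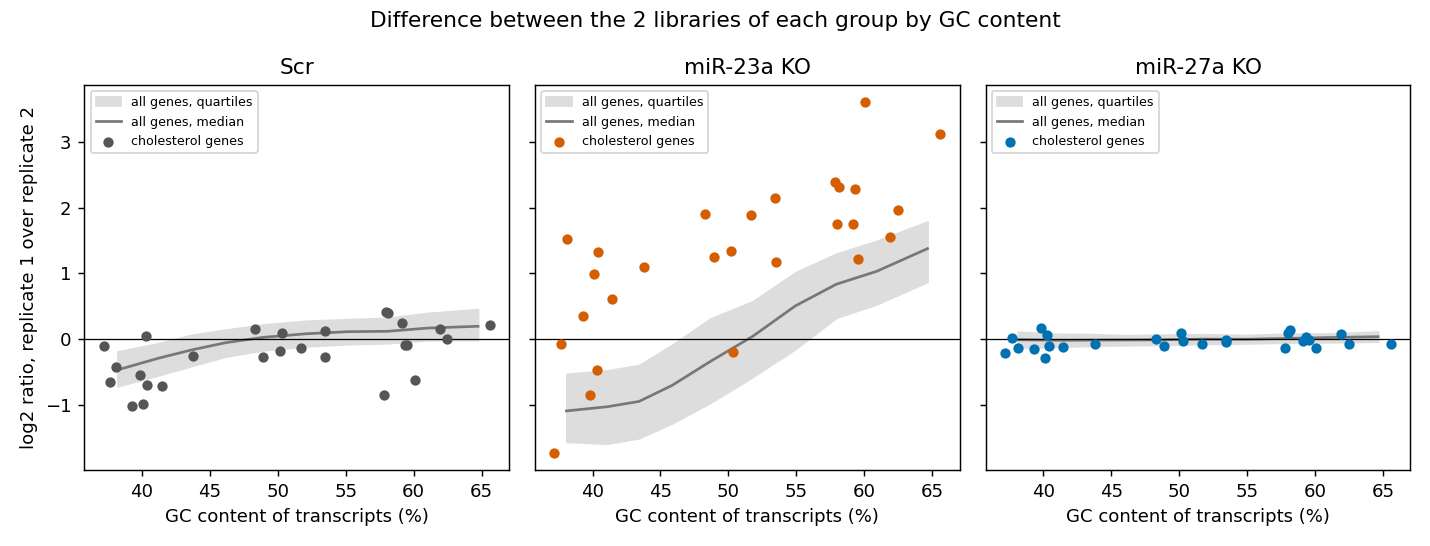
Log2 ratio of replicate 1 to replicate 2 within each group against the GC content of the transcripts in percent; coloured points are the 27 cholesterol genes, and the grey line and band are the median and quartiles of all genes in 10 bins of GC content. In miR-23a KO 23 of the 27 points lie above the grey band.

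The comparison of miR-27a KO with Scr asked how these genes differ between the 2 groups. Of the 27 cholesterol genes tested, 4 fell (*FDPS*, *FDFT1*, *LSS* and *NPC1*) and 1 rose (*INSIG2*) at an adjusted p under 0.05 (edgeR's quasi-likelihood test, Benjamini-Hochberg over all 13820 genes tested). The falls were between 1.32-fold and 1.52-fold and the rise was 1.74-fold. Of all genes tested, 9.12% fell and 4.91% rose at the same threshold, against 14.8% and 3.70% of the cholesterol genes. With GC content and length corrected the balance of all genes turned, as 7.02% fell and 7.77% rose. Of the 27 members 2 fell and 0 rose in that fit, too few to read a balance from. With the replicate number added as a block on top of that correction, 2 fell and 1 rose (*TM7SF2*). With the correction alone the median of the members was -0.05 against 0.06 for all genes. Without correction the median log2 fold change of the 27 was -0.15, against 0.01 for all genes. Of the 27, 18 were below 0 (66.7% against 49.1% of all genes). Without Scr replicate 2 the median was 0.0235 and 13 were below 0. With GC content and length corrected 15 were below 0. Both miR-27a KO libraries lay below both Scr libraries for 9 of the 27 genes (33.3%) and above them for 3 (11.1%), where 31.9% and 32.4% of all genes did so. The share of members lying below was thus near that of all genes, and the share lying above was smaller. At the stricter thresholds of the study (1.5-fold, adjusted p below 0.001), applied to the edgeR test used here, 0 of the 27 passed. Only 4 of all 13820 genes did, so this count tells little about the members. The study itself reported far more genes at these thresholds and names no test, so its counts and these are not alike.

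Among the enzymes from mevalonate to squalene, *FDFT1* (gene 2222), the squalene synthase that commits farnesyl diphosphate to sterols, was the most abundant cholesterol gene per transcript length, at 440 CPM per kilobase over the 6 libraries. Its Scr libraries read 1124 and 1006 CPM, those of miR-23a KO 1353 and 360, and those of miR-27a KO 703 and 703. The miR-27a KO libraries were nearly equal and lay below both Scr libraries, whereas those of miR-23a KO lay on either side of them. Against Scr, the miR-27a KO libraries differed by -0.60 in log2 (standard error 0.09, adjusted p = 0.0212, edgeR with Benjamini-Hochberg adjustment). It kept this call with GC content and length corrected (-0.59).

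*FDPS* (gene 2224), which makes the farnesyl diphosphate that *FDFT1* uses, was next in abundance at 130 CPM per kilobase. The Scr libraries read 188 and 173 CPM, the miR-23a KO libraries 228 and 100.9, and the miR-27a KO libraries 134 and 136. Again the miR-27a KO libraries were low without overlap and the miR-23a KO libraries enclosed Scr. Against Scr, the miR-27a KO libraries differed by -0.42 in log2 (standard error 0.08, adjusted p = 0.0335, edgeR with Benjamini-Hochberg adjustment), and with GC content and length corrected it was -0.25 and no longer passed. GENCODE lists 8 pseudogenes named after *FDPS*, and reads of such copies could be split between loci, so its level is uncertain. The same holds for *CYP51A1* with 3 such pseudogenes and *HSD17B7* with 2, of which *HSD17B7P2* is itself among the deposited genes.

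The other 7 genes of this stretch did not pass in miR-27a KO. Log2 fold changes were 0.11 for *ACAT2*, which joins 2 acetyl-CoA, and 0.38 for *HMGCS1*, the HMG-CoA synthase. They were -0.44 for *MVK*, 0.05 for *PMVK* and -0.13 for *MVD*, which phosphorylate and decarboxylate mevalonate. *IDI1*, the isopentenyl diphosphate isomerase, was at -0.17, and *GGPS1*, which makes geranylgeranyl diphosphate, at 0.16. Of these, *MVK* had both miR-27a KO libraries below Scr and *GGPS1* had both above. *MVK* and *MVD* are singled out after their values were seen, as the genes with the widest gap within miR-23a KO. *MVK* was at 176 and 14.5 CPM in the miR-23a KO libraries, 12.1-fold apart, against 40.5 and 62.2 in Scr and 36.3 and 39.8 in miR-27a KO. *MVD* was at 349 and 40.3 CPM in miR-23a KO, 8.68-fold apart, against 107 and 91.8 in Scr and 88.6 and 93.3 in miR-27a KO. For both genes replicate 1 of miR-23a KO was the highest of the 6 libraries and replicate 2 the lowest.

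Of the 10 genes from squalene to cholesterol, *LSS* (gene 4047), the cyclase that closes squalene epoxide into lanosterol, was the 1 that passed in miR-27a KO. Its Scr libraries read 122 and 130 CPM, those of miR-23a KO 255 and 52.2, and those of miR-27a KO 96.4 and 94.8. The miR-27a KO libraries lay below both Scr libraries, and the miR-23a KO libraries lay above and below them. Against Scr, the miR-27a KO libraries differed by -0.40 in log2 (standard error 0.08, adjusted p = 0.0353, edgeR with Benjamini-Hochberg adjustment). With GC content and length corrected it was -0.12 and did not pass; the transcripts of *LSS* have a GC content of 59.3%.

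*EBP* (gene 10682), the sterol isomerase, came after *FDFT1* and *FDPS* in abundance at 78.5 CPM per kilobase over the 6 libraries. In Scr alone *DHCR7* was above it, at 77.3 against 72.03 CPM per kilobase, and in miR-23a KO *MVD* was, at 106.8 against 101.9. The Scr libraries read 116 and 140 CPM, the miR-23a KO libraries 295 and 66.6, and the miR-27a KO libraries 108 and 111. The miR-27a KO libraries lay just below Scr without overlap, but the log2 fold change of -0.23 (standard error 0.11) did not pass (adjusted p = 0.219, edgeR with Benjamini-Hochberg adjustment). *DHCR7*, which performs the last reduction to cholesterol, and *NSDHL*, which removes a methyl group, also had both miR-27a KO libraries below Scr, with log2 fold changes of -0.57 and -0.32. *DHCR7* missed the threshold (adjusted p = 0.063, edgeR with Benjamini-Hochberg adjustment) and passed with DESeq2, but with GC content and length corrected its log2 fold change was -0.28 and did not pass. The remaining log2 fold changes were -0.15 for *SQLE*, the squalene epoxidase, 0.21 for *CYP51A1*, the lanosterol demethylase, 0.11 for *TM7SF2*, a sterol reductase, and -0.21 for *MSMO1*, a methyl sterol oxidase. *HSD17B7*, a sterol ketone reductase, and *SC5D*, the desaturase, were both at -0.02. *TM7SF2* had both miR-27a KO libraries above Scr. With GC content and length corrected its log2 fold change was 0.44 and did not pass, but it passed when the replicate block was added. Over the 10 genes, 8 were below 0 and the median was -0.18.

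In the control of SREBP-2, *INSIG2* (gene 51141), one of the 2 proteins that retain the SCAP complex, rose in miR-27a KO. Its Scr libraries read 16.6 and 17.9 CPM, those of miR-23a KO 10.6 and 35.1, and those of miR-27a KO 28.0 and 32.3. Both miR-27a KO libraries were above Scr, and the miR-23a KO libraries lay below and above it, here with replicate 2 the higher. Against Scr, the miR-27a KO libraries differed by 0.80 in log2 (standard error 0.14, adjusted p = 0.0283, edgeR with Benjamini-Hochberg adjustment). With GC content and length corrected it was 0.59 and no longer passed; at 37.2% the GC content of *INSIG2* was the lowest of the 28 genes. *INSIG1* (gene 3638), the other INSIG gene, had 1 and 0 counts in the Scr pair, 2 and 1 in the miR-23a KO pair, and 2 and 0 in the miR-27a KO pair. It was at or below the floor of 3 counts in every library, so it was not tested and no fold is given.

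*SREBF2* (gene 6721), which encodes SREBP-2, read 357 and 269 CPM in the Scr pair, 350 and 104.5 in the miR-23a KO pair, and 298 and 281 in the miR-27a KO pair. The miR-27a KO libraries lay within the range of Scr, and only miR-23a KO replicate 2 was far below it. The log2 fold change was -0.12 (standard error 0.15) in miR-27a KO and -0.43 (standard error 0.59) in miR-23a KO, and neither passed. With GC content and length corrected that in miR-27a KO turned to 0.05. *SCAP* (gene 22937), the escort of SREBP-2, read 184 and 165 CPM in the Scr pair, 359 and 122 in the miR-23a KO pair, and 156 and 148 in the miR-27a KO pair. The miR-27a KO libraries were slightly below Scr, with a log2 fold change of -0.20 (standard error 0.09) that did not pass. With GC content and length corrected that of *SCAP* turned to 0.10. Its miR-23a KO libraries differed from Scr by 0.49 in log2 (standard error 0.55), again between 1 library far above Scr and 1 below.

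Of the 3 genes of uptake and transport, *NPC1* (gene 4864), which moves cholesterol out of lysosomes, fell in miR-27a KO. Its Scr libraries read 88.0 and 82.4 CPM, those of miR-23a KO 51.6 and 59.4, and those of miR-27a KO 63.1 and 64.7. All 4 KO libraries lay below both Scr libraries, and *NPC1* was the only cholesterol gene for which this held on one side in both KO groups (3.70% of the 27). Of the 13556 genes tested against Scr in both, 10.7% did so, 6.57% below and 4.13% above. Its log2 change from Scr to miR-27a KO was -0.42 (standard error 0.09, adjusted p = 0.0382, edgeR with Benjamini-Hochberg adjustment), and correcting GC content and length left it called (-0.40). For miR-23a KO it was -0.55 (standard error 0.43) and did not pass (adjusted p = 1.0, edgeR with Benjamini-Hochberg adjustment). Both comparisons use the same Scr libraries. *STARD4*, a cytosolic sterol carrier, was between 6.91 and 14.2 CPM in all libraries and had a log2 fold change of -0.55 (standard error 0.36) in miR-27a KO. *NPC1L1*, the transporter for sterol absorption, was between 22.7 and 76.5 CPM and had a log2 fold change of 0.01.

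The 2 esterification genes did not pass. *SOAT1*, the acyltransferase of most tissues, was between 24.7 and 45.7 CPM with a log2 fold change of 0.02 in miR-27a KO. *SOAT2*, the form of liver and intestine, was between 11.4 and 59.3 CPM with a log2 fold change of -0.20.

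The calls in miR-27a KO depended on the libraries and on the model. Without miR-27a KO replicate 1, and likewise without replicate 2, 0 of the 27 genes passed. Without Scr replicate 1 and without Scr replicate 2, 15 passed in each case, and 14 and 9 of them were lower. Of all genes, 37.8% and 49.4% passed in these fits, and 2.96% and 2.34% in those without a miR-27a KO library. Fitting all 6 libraries together, and so sharing the wide spread of miR-23a KO, called 0, and a fit without the filter on low counts called *FDFT1* and *INSIG2* only. When a library is left out, the lone one of its group is assumed to vary like the other group. Without miR-27a KO replicate 1 and without replicate 2, log2 fold changes were -0.60 and -0.59 for *FDFT1* and -0.41 and -0.42 for *FDPS*. They were -0.41 and -0.38 for *LSS*, -0.39 and -0.42 for *NPC1*, and 0.91 and 0.71 for *INSIG2*. In the fit of all 6 libraries they were -0.60, -0.42, -0.40, -0.41 and 0.80 in this order.

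**Figure D3:**
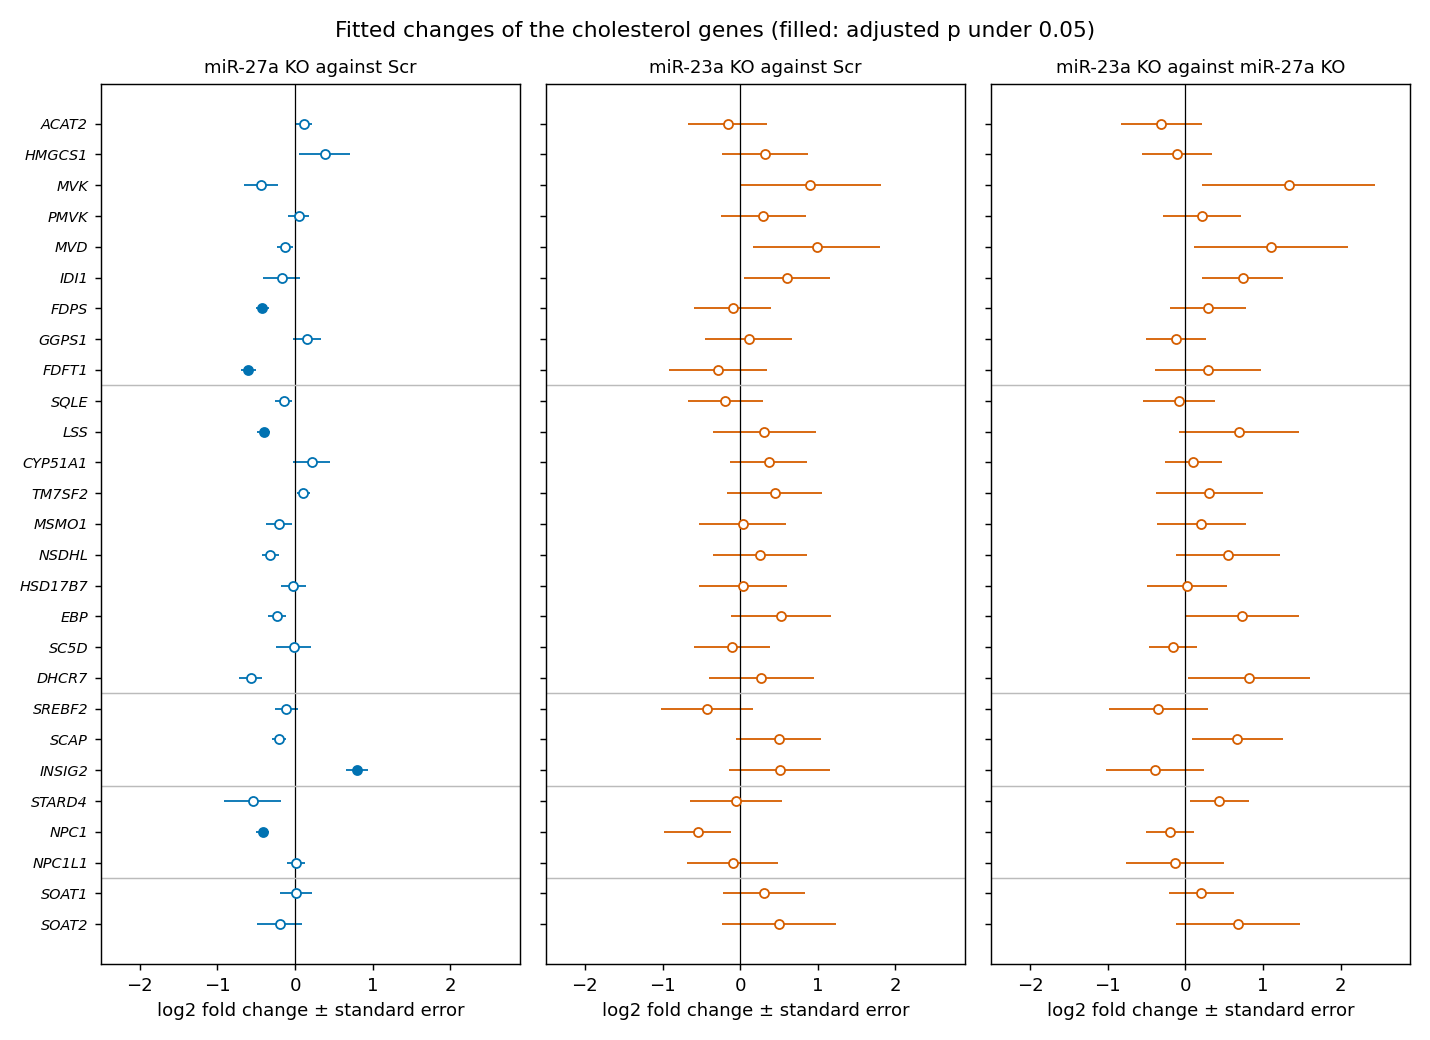
Log2 fold change with its standard error for 27 cholesterol genes in the 3 comparisons, each from its own fit with 2 libraries per group; filled points have an adjusted p under 0.05. The 5 filled points, 4 below 0 and 1 above, are all in miR-27a KO against Scr, and the bars are wider in both comparisons with miR-23a KO.

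The comparison of miR-23a KO with Scr asked the same of the other knockout. Of the 27 genes tested, 0 rose and 0 fell at an adjusted p under 0.05 by edgeR's quasi-likelihood test, 0 had an unadjusted p under 0.05, and DESeq2 called 0. Of all 13786 genes tested, 0% rose and 0% fell, and 332 had an unadjusted p under 0.05. Log2 fold changes of the 27 ran from -0.55 to 0.98 with a median of 0.27, against 0.16 for all genes, and 9 were below 0 (33.3% against 37.0%). Both miR-23a KO libraries lay below both Scr libraries for *NPC1* alone (3.70% of the 27, against 14.9% of all genes) and above them for 0 of the 27 (against 8.87%). Few members thus lay outside Scr on one side, since most had 1 library above it and 1 below. The direction rested on which library was used. Without miR-23a KO replicate 2 the median was 0.57 and 11 genes passed, 10 of them higher and *NPC1* lower. Without replicate 1 it was -0.84 and 7 passed, all 7 lower. Of all genes, 18.6% passed without replicate 2 (12.0% higher, 6.60% lower) and 4.12% without replicate 1 (2.34% higher, 1.78% lower). *DHCR7*, *LSS*, *MVD* and *MVK* were called in both, higher in one and lower in the other.

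By role, the median level relative to the Scr mean in miR-23a KO was 0.75 in replicate 1 and -0.84 in replicate 2 (log2) for the 9 genes from mevalonate to squalene. For the 10 genes from squalene to cholesterol it was 0.76 and -0.91. The 3 measured genes of SREBP control were at 0.18 and -0.52, those of uptake and transport at 0.14 and -0.52, and the 2 of esterification at 0.52 and -0.24. These medians hide genes that went opposite ways: *SREBF2* and *SCAP* were 3.35-fold and 2.94-fold higher in replicate 1, and *INSIG2* was 3.32-fold higher in replicate 2. *SOAT2* was 5.22-fold higher in replicate 1, and *SOAT1* was 1.81-fold higher in replicate 2.

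Set directly against miR-27a KO, miR-23a KO had 0 of the 27 genes higher and 0 lower at an adjusted p under 0.05 (edgeR; 0 at an unadjusted p under 0.05, 0 by DESeq2). Of all 13841 genes tested, 0% were called higher and 0% lower, with 1207 at an unadjusted p under 0.05. The median log2 fold change of the 27 was 0.21, against 0.11 for all genes. Libraries did not overlap for 1 gene that was higher in miR-23a KO, *STARD4* (3.70%, against 18.7% of all genes), and 2 that were lower, *NPC1* and *SC5D* (7.41%, against 20.8%). For the 5 genes called in miR-27a KO, the differences were 0.29 (standard error 0.69) for *FDFT1*, 0.29 (standard error 0.49) for *FDPS* and 0.69 (standard error 0.77) for *LSS*. They were -0.20 (standard error 0.31) for *NPC1* and -0.39 (standard error 0.63) for *INSIG2*. None passed, so these changes are not shown to differ between the knockouts. Without miR-23a KO replicate 1, 21 of the 27 passed, 20 of them lower in miR-23a KO, and without replicate 2, 25 passed, 22 of them higher. Of all genes, 57.8% and 68.0% passed in these fits, about equally split between higher and lower, whereas the members called lay mostly on one side in each fit.

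The promoters were read for 3 motifs, as a description with no test. RefSeq promoters (250 bases before to 50 after the start, GRCh38.p14) were at hand for 24 of the 28 genes and for 15000 genes of the table. The motif CCAAT, read on both strands, was in 19 of the 24 (79.2%), against 41.7% of all. The E-box CACGTG was in 4 of the 24 (16.7%), against 11.2%. The sterol regulatory element spelled TCACNCCAC was in 1 of the 24 (4.17%), that of *SREBF2*, against 1.41%. No match says only that these letters are not in the window. The 4 promoters below are examples: *SREBF2* with the sterol element and a CCAAT, *FDPS* with 3 CCAAT motifs, *LSS* with 1 CCAAT and an E-box, and *NPC1* with none of them. Capitals mark the motifs, which on the other strand read ATTGG for CCAAT.
*SREBF2* promoter, chr22:41832855-41833154, plus strand: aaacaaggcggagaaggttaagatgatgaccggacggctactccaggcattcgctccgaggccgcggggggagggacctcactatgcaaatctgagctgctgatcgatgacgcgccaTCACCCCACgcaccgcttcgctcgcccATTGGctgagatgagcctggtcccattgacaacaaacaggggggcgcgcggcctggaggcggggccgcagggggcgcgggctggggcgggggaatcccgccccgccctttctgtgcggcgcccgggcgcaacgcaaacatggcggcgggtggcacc
*FDPS* promoter, chr1:155308616-155308915, plus strand: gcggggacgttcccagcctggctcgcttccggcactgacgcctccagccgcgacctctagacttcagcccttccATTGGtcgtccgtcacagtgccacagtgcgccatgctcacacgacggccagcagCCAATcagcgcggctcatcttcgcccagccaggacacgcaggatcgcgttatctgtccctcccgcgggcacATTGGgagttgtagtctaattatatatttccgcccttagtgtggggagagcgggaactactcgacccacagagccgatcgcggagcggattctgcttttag
*LSS* promoter, chr21:46228725-46229024, minus strand: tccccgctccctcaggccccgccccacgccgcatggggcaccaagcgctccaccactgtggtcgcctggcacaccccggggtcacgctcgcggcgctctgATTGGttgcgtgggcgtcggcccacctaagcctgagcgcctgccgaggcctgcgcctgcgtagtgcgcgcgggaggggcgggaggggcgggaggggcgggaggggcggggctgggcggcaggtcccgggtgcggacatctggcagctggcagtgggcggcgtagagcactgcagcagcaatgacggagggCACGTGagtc
*NPC1* promoter, chr18:23586457-23586756, minus strand: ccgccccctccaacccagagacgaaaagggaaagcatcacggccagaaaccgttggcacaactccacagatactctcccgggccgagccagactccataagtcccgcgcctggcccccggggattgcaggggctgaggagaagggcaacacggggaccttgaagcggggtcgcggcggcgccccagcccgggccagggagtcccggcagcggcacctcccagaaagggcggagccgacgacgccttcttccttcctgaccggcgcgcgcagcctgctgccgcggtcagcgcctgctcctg
Of the 5 members called in miR-27a KO, *FDPS* and *LSS* thus hold CCAAT, *NPC1* and *INSIG2* do not, and *FDFT1* has no promoter in the set used.

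Counting could also mix neighbouring genes. In GENCODE, 13 of the 28 genes share exon bases with another gene, 3 of them (*GGPS1*, *CYP51A1* and *TM7SF2*) with one on the same strand. *NPC1* overlaps *RMC1*, *MVK* overlaps *MMAB* and *FDPS* overlaps *RUSC1-AS1*, each on the opposite strand. The methods of the study name a stranded library kit, and the labels a kit that is not. Whether the counting used strand is not given in the sources used here, so reads of such pairs may be mixed.

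Further lists of sterol genes were read in miR-27a KO against Scr, with 0 genes called by edgeR in any of them in the other 2 comparisons. Those zeros rested on both miR-23a KO libraries: against Scr, 0 to 2 genes per list were called without replicate 1 and 1 to 5 without replicate 2. Between the knockouts the ranges were 3 to 10 and 8 to 9. Among 10 other SREBP-responsive genes, 4 fell and 0 rose, with a median log2 fold change of -0.41, and 9 of the 10 had both miR-27a KO libraries below Scr. Over all genes 9.12% fell and 31.9% lay below Scr in this way. The lists were chosen with earlier results of these data known, so these shares describe the list and test nothing. The 4 calls became 1 without miR-27a KO replicate 1 and 1 without replicate 2, 6 without Scr replicate 1 and 6 without Scr replicate 2, and 0 in the fit of all 6 libraries. *ACLY*, which makes cytosolic acetyl-CoA from citrate, was at 309 and 299 CPM in Scr and 198 and 200 in miR-27a KO, a log2 fold change of -0.62 (standard error 0.08). *ACSS2*, which makes acetyl-CoA from acetate, was at 71.3 and 79.4 CPM in Scr and 49.3 and 50.8 in miR-27a KO (-0.59, standard error 0.10). The miR-27a KO libraries of both were about equal and clear of Scr. The fatty acid desaturase *FADS2* was at 115 and 114 CPM in Scr and 56.9 and 66.8 in miR-27a KO (-0.89, standard error 0.11). *ALDOC*, an aldolase, was at 72.02 and 49.4 CPM in Scr and 25.3 and 25.3 in miR-27a KO (-1.27, standard error 0.20). The adjusted p of these 4 lay between 0.0127 and 0.0241 (edgeR with Benjamini-Hochberg adjustment), and *ACSS2* no longer passed with GC content and length corrected (-0.42).

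Of the 12 genes of efflux and oxysterol response, 9 were tested, 3 fell (33.3%, against 9.12% of all genes) and the median was -0.23. The 3 calls became 2 without miR-27a KO replicate 1 and 1 without replicate 2, 6 without Scr replicate 1 and 5 without Scr replicate 2, and 1 in the fit of all 6 libraries. *SCARB1*, the receptor for high-density lipoprotein, was at 775 and 675 CPM in Scr and 475 and 456 in miR-27a KO (-0.64, standard error 0.10), and with GC content and length corrected it was at -0.37 and still passed. *LCAT*, the plasma enzyme that esterifies cholesterol on lipoproteins, was at 31.8 and 62.5 CPM in Scr and 14.7 and 12.2 in miR-27a KO (-1.82, standard error 0.34), and with this correction it was at -1.54 and just missed the threshold. Both genes were low in each miR-27a KO library, although the Scr libraries of *LCAT* themselves were apart. *CYP39A1*, an oxysterol hydroxylase, had 41 and 52 counts in the Scr pair, 35 and 41 in the miR-23a KO pair, and 0 and 0 in the miR-27a KO pair. Against a floor of 3 counts per library it was at least 17.5-fold lower in miR-27a KO. The adjusted p were 0.0214, 0.0312 and 0.0134 in this order (edgeR with Benjamini-Hochberg adjustment).

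Of 10 tested genes of lysosomal and intracellular sterol transport, 1 fell (10%, against 9.12% of all genes) and the median was -0.28. This was *LAMP1*, a protein of the lysosomal membrane, at 651 and 703 CPM in Scr and 379 and 376 in miR-27a KO (-0.85, standard error 0.08, adjusted p = 0.00828, edgeR with Benjamini-Hochberg adjustment). Of the 10 genes of non-sterol branches, 1 fell (10%) and the median was 0.12. *DHDDS*, of dolichol synthesis, was at 92.2 and 92.7 CPM in Scr and 70.0 and 69.8 in miR-27a KO (-0.41, standard error 0.08, adjusted p = 0.0338, edgeR with Benjamini-Hochberg adjustment). It lost its call with GC content and length corrected (-0.23). Of 10 other genes that control SREBP or sterol-regulated degradation, 1 rose (10%, against 4.91% of all genes) and the median was -0.05. A single call is the smallest share above 0 that a list of 10 can show. *MBTPS1*, a protease that cuts SREBP in the Golgi, was at 174 and 143 CPM in Scr and 227 and 221 in miR-27a KO (0.50, standard error 0.12, adjusted p = 0.0493, edgeR with Benjamini-Hochberg adjustment). It missed the threshold with median-ratio scaling. Without the filter on low counts *MBTPS1*, *DHDDS* and *LCAT* each missed it. The single calls of these 3 lists were each lost without miR-27a KO replicate 1, without replicate 2 and in the fit of all 6 libraries. Without Scr replicate 1 and without Scr replicate 2 the lysosomal list had 6 and 7 calls, the non-sterol list 2 and 5, and the list of SREBP control 6 and 3. Without miR-27a KO replicate 1, without replicate 2 and in the fit of all 6, the log2 fold change of *LAMP1* was -0.85, -0.83 and -0.84. That of *DHDDS* was -0.40, -0.39 and -0.40, and that of *MBTPS1* 0.48, 0.53 and 0.50. DESeq2 called 4 genes of the lysosomal list. In miR-23a KO the medians of these 5 lists, in the order given here, were 0.05, 0.13, -0.35, 0.42 and 0.01.

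**Figure D4:**
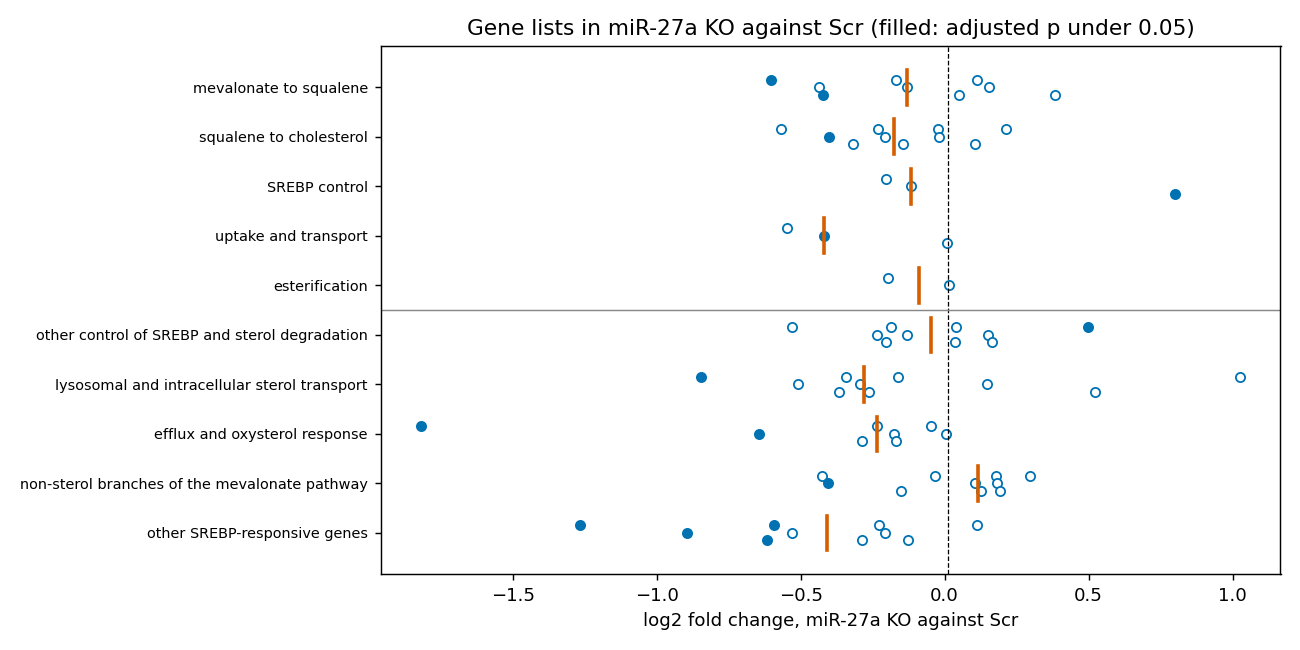
Log2 fold change in miR-27a KO against Scr of each tested gene by list, the 27 tested cholesterol genes above the line and the other lists below it; filled points have an adjusted p under 0.05, orange bars are list medians and the dashed line is the median of all genes (0.01). *CYP39A1* is left out of the plot because it was at 0 in miR-27a KO; the list of other SREBP-responsive genes has its median at -0.41.

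Markers of cell types were read beside these results. All 8 hepatocyte markers were detected, and they summed to 26598 and 34864 CPM in the Scr pair, 29189 and 30705 in the miR-23a KO pair, and 19212 and 18946 in the miR-27a KO pair, with *SERPINA1* the most abundant on average. The sum was thus lower in both miR-27a KO libraries, where 4 of the 8 markers lay below both Scr libraries, 3 above and *APOB* between. *ALB* read 10419 and 15110 CPM in the Scr pair and 2087 and 2151 in the miR-27a KO pair, and *AFP* read 2589 and 3913 against 184.5 and 192. *TTR* read 63.3 and 191 against 48.2 and 49.6, and *FGB* 25.5 and 47.5 against 8.66 and 9.03. *SERPINA1* in contrast read 10741 and 11023 against 12762 and 12470, *APOA1* 1172 and 1545 against 1816 and 1794, and *HNF4A* 340 and 362 against 411 and 421. The lower sum thus came mostly from *ALB* and *AFP*. Of the other types, the fibroblast marker *COL1A1* had at most 2 counts in each library and the leukocyte marker *PTPRC* at most 2, while *PDGFRB* made up nearly all of the fibroblast sum. That sum was 17.5 and 29.2 CPM in the Scr pair, 29.8 and 19.7 in the miR-23a KO pair, and 5.75 and 5.12 in the miR-27a KO pair, so it too was lower in miR-27a KO. The endothelial sum lay between 3.35 and 6.83 CPM, led by *PECAM1*. The leukocyte sum came from *CD68* and was also lower in miR-27a KO, at 107 and 104 CPM against 162 and 152 in Scr and 136 and 70.8 in miR-23a KO. The enterocyte sum, between 297 and 462 CPM, came from *VIL1*. The methods of the study give single-cell sorting by GFP as the step from which the knockout clones were grown. The part of these levels in the changes of the cholesterol genes was not tested, and fewer cells of a type cannot be told apart from less RNA per cell.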

How the data were processed

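RNA-seq libraries were read as paired ends; the methods of the study name a stranded mRNA kit, while the kit number of the labels belongs to one that is not stranded. The authors deposited 1 value per gene and library in columns named FPKM. These deposited values were taken as estimated counts of reads per gene, because the column totals differ and 34.5% to 40.8% of the values above 0 are exactly whole as printed (42.6% to 51.0% with zeros counted). The processing notes name HISAT, StringTie, Cufflinks and GATK without versions; which of them made the table, and the genome build, is not given in the sources used here. All value columns were used (0 left aside). Some label wording fits another cell type, so groups were taken from the titles.

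Counts were rounded, filtered with filterByExpr and scaled by TMM, and a separate model was fitted for each comparison (edgeR 4.0.16 in R 4.3.3, functions glmQLFit and glmQLFTest). The Benjamini-Hochberg adjustment ran over all genes tested, and a gene was called at an adjusted p under 0.05. The standard error is the log2 fold change over the square root of F. Transcript length and GC content are medians over the protein-coding transcripts of GENCODE release 29 and were matched for 17620 genes (88.0%). The workflow was tested on simulated data. As alternatives, DESeq2 1.42.0 replaced edgeR, scaling was by median ratios, the filter was dropped, or all 6 libraries shared 1 model. Others added the replicate number as a block, loess offsets for GC content and length (span 0.5, degree 2), or both, and each library was left out in turn.

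Values in every library are given for cholesterol genes called in any comparison, those outside Scr on one side in both KO groups, the 3 most abundant per transcript length, and *SREBF2*, *SCAP*, *INSIG1* and *INSIG2*. From the other lists, called genes are named. The members and lists were chosen with earlier results of these data known.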

Additional observations from a re-analysis of the deposited data

Results flagged for a closer look

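For 2 genes of the list of lysosomal and intracellular sterol transport, both libraries of one KO group lay above Scr and both of the other below. Of the 13556 genes tested against Scr in both KO groups 5.80% did so, so the pattern is not rare, and for *OSBP* replicate 2 of miR-23a KO lay only just below Scr. *OSBP*, an oxysterol-binding protein, read 71.7 and 73.4 CPM in the Scr pair, 35.9 and 70.8 in the miR-23a KO pair, and 80.1 and 80.9 in the miR-27a KO pair. *GRAMD1B*, a sterol carrier between membranes, had 12 and 16 counts in the Scr pair, 0 and 2 in the miR-23a KO pair, and 26 and 39 in the miR-27a KO pair. The difference between the knockouts was tested in their direct comparison and did not pass, with an adjusted p of 0.808 for *OSBP* and 0.202 for *GRAMD1B* (edgeR with Benjamini-Hochberg adjustment). Both KO groups are set against the same Scr libraries.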

How the results depend on the processing

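With 2 libraries per group the calls moved with the model and with single libraries, and the cause was not tested. In miR-27a KO against Scr, 5 members were called, against 2 without a filter, 2 with GC content and length corrected, 0 in 1 fit of all 6 libraries, and 0 to 15 with 1 library left out, where the median of -0.15 ran from -0.26 to 0.0235. All genes called there numbered 1938, against 1043 without a filter, 2044 with GC content and length corrected, 64 in the fit of all 6, and 334 to 7066 with 1 library left out. Signs of log2 fold changes also turned there. With GC content and length corrected they became 0.21 for *MVD*, -0.0549 for *GGPS1*, 0.0486 for *HSD17B7*, 0.0531 for *SREBF2*, 0.10 for *SCAP*, -0.18 for *SOAT1* and 0.0517 for *SOAT2*. With 1 library left out they ran from -0.0231 to 0.97 for *HMGCS1*, -0.47 to 0.23 for *IDI1*, -0.0945 to 0.62 for *CYP51A1*, -0.39 to 0.0235 for *MSMO1*, -0.15 to 0.12 for *HSD17B7* and -0.30 to 0.35 for *SC5D*. They ran from -0.30 to 0.11 for *SREBF2*, -0.96 to 0.052 for *STARD4*, -0.10 to 0.14 for *NPC1L1*, -0.23 to 0.32 for *SOAT1* and -0.55 to 0.30 for *SOAT2*. In miR-23a KO against Scr, 0 members were called and 0 to 11 with 1 library left out, where the median of 0.27 ran from -0.84 to 0.57. All genes called numbered 0 by edgeR, 63 by DESeq2, 10 without a filter, 8 with GC content and length corrected, 3 in the fit of all 6, and 4 to 2630 with 1 library left out. With GC content and length corrected *INSIG2* was at -0.25 and *MSMO1* at -0.23. With 1 library left out log2 fold changes ran from -0.79 to 0.34 for *FDPS*, -1.52 to 0.35 for *FDFT1*, -1.23 to 1.02 for *LSS*, -1.54 to 0.16 for *SREBF2* and -0.47 to 1.04 for *SCAP*. They ran from -0.71 to 1.07 for *INSIG2*, -0.26 to 0.90 for *HMGCS1* and -0.91 to 0.57 for *MSMO1*. Between the knockouts, 0 members were called and 0 to 25 with 1 library left out, where the median of 0.21 ran from -0.72 to 0.70. All genes called numbered 0 by edgeR, 477 by DESeq2, 280 with GC content and length corrected, 218 in the fit of all 6, and 72 to 9665 with 1 library left out. Left-out ranges were -0.43 to 0.76 for *FDPS*, -0.97 to 0.95 for *FDFT1*, -0.88 to 1.42 for *LSS* and -1.51 to 0.21 for *INSIG2*, and *NPC1* was at 0.17 with GC content and length corrected. Whether the replicate numbers pair the samples is not known. Deviations of same-numbered libraries correlated at 0.217 for Scr and miR-23a KO, -0.006 for Scr and miR-27a KO and 0.021 for the knockouts. With 2 libraries per group these values can neither show nor exclude pairing. With the number as a block, 6 members, 2237 genes and 3 genes of the lysosomal list were called in miR-27a KO, *SC5D* was at 0.014, and 69 and 400 genes were called in miR-23a KO against Scr and against miR-27a KO. There *LSS* was at -0.0596 and *MSMO1* at -0.11 against Scr, and *FDFT1* at -0.0056 between the knockouts. With the block and GC content and length corrected together, 3 members and 2286 genes were called in miR-27a KO. The members were *FDFT1* and *NPC1*, both lower, and *TM7SF2*, higher at 0.44. There *MVD* was at 0.21, *GGPS1* at -0.0486, *HSD17B7* at 0.0572, *SREBF2* at 0.0557, *SCAP* at 0.10, *SOAT1* at -0.18 and *SOAT2* at 0.13. In that setting *SCARB1* was at -0.37 and no longer called, and *LCAT* was at -1.43 and called. The same setting called 57 genes in miR-23a KO against Scr, with *INSIG2* at -0.33 and *MSMO1* at -0.60, and 1128 between the knockouts, with *NPC1* at 0.14.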
